A study of Mus musculus with 4 samples.

Results

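SNARE proteins and the syntaxin-binding proteins that act with them were examined as the fusion machinery through which a macrophage secretes cytokines. Members were the probes whose platform symbol begins with Stx, Stxbp, Vamp or Vti1 followed by a number or the letter a or b, together with Snap23, Snap25, Snap29 and Snap47. The rule gave 69 probes for 33 genes, out of 45281 probes and 21946 named genes on the array. The data were 4 whole-genome bead arrays of RAW G9 cells, a reporter line made from the mouse macrophage line RAW264.7, which is the name the labels give. The LPS cells received 10 ng/ml lipopolysaccharide (LPS), a cell-wall component of gram-negative bacteria (here from Salmonella minnesota R595), for 4 h, and the untreated cells received none. There were 2 arrays, A and B, for LPS and 2 for untreated cells, described in the study's methods as biological duplicates. The labels give untreated cells an incubation time of 0 h in the sample fields, while the treatment text has 0 ng/ml for 4 h. RAW G9 is 1 clone, and its cells in both groups carry lentiviral cassettes with GFP-RelA under the Rela promoter and a destabilized mCherry under the Tnf promoter.

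SNAREs are membrane proteins that pull a vesicle and its target membrane together. A fusion complex is a bundle of helices named Qa, Qb, Qc and R, and a Qbc protein such as Snap23 supplies both Qb and Qc. Munc18-type syntaxin-binding proteins guide the assembly of the bundle. In macrophages newly made TNF leaves the Golgi in carriers that use Stx6, Stx7 and Vti1b, passes through recycling endosomes marked by Vamp3, and reaches a cell surface that holds Stx4a and Snap23. Stxbp3 is the Munc18-type protein that binds Stx4a.

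Detection was called per gene and condition, from any probe with a detection p below 0.1 in both replicates. Of the 33 genes, 27 (81.8%) were detected, all 27 of them in both conditions, against 46.3% of the 21946 named genes. The 6 that were not detected were Snap25 and Stxbp6, which are best known from neurons, Stx19, known from epithelia, Vamp5, known from muscle, and Stx16 and Stxbp3, which are widely expressed. These 6 were not tested, and a dim probe sets no upper limit on the messenger itself. Macrophage markers were detected for 10 of 10 genes, including Csf1r, Cd68 and Lyz2. T-cell markers were detected for 0 of 5 genes with a probe, B-cell markers for 0 of 4 and fibroblast markers for 0 of 6. Among neuronal markers 3 of 10 were detected (Syp, Map2 and Eno2), among epithelial ones 3 of 5 (Krt8, Cdh1 and Cldn7), and among those of mast cells and basophils only Hdc of 7.

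The untreated arrays shared 1 slide and the LPS arrays lay on 2 others, so slide and LPS cannot be told apart. Raw signal was lower on the LPS arrays over much of the range, with a 95th percentile of 778 and 693 in the LPS arrays and of 1416 and 1147 in the untreated arrays. Quantile normalization, used here, gives all 4 arrays the same distribution. Scaling each array by its median over all probes instead shifts the median change of tested probes by -0.55 on the log2 scale. Between 16380 and 17892 of the 45281 probes were detected on an array, so that median lies among undetected probes. Directions are given relative to the quantile-normalized distribution, and where median scaling turns the sign of a gene named with its value, or removes its call, that is given in the same passage. Before normalization, 39 of the 45 tested member probes had a lower signal in both LPS arrays than in either untreated array, 2 had a higher one (Stx11 and the brighter Stx6 probe), and 4 overlapped. The same count was not made over all tested probes, so it does not set the members apart from the array.

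Member genes differed between the LPS and untreated arrays in both directions. The RNA came from whole cultures, so less RNA per cell and fewer cells with a messenger cannot be told apart. On normalized log2 signal with limma and Benjamini-Hochberg adjustment over all 17211 tested probes, 4 member genes were higher with LPS (Stx11, Stx6, Stx3 and Snap29, of which Stx3 did not pass and Snap29 turned with median scaling) and 6 were lower (Stx2, Vamp4, Stxbp5, Stx5a, Stx1a and Stx7). Each gene is represented by its brightest tested probe. The higher genes made up 14.8% of the 27 tested members, beside 13.6% of all 10157 tested genes, and the lower ones 22.2%, beside 21.1%. Both shares were near those of the array as a whole. The remaining 17 genes did not pass the threshold of 0.05. The median change of the members was -0.13 on the log2 scale and that of all tested genes -0.09, and the median absolute change was 0.37 and 0.32 in the same order. With median scaling 2 members were higher (Stx11 and Stx6) and 20 lower. Shares of all tested genes were not counted with that scaling, which put the median change of all tested probes at -0.62. Stx11, Stx6, Stx2 and Vamp4 passed in the same direction with either normalization, with slide as a random block, and without any 1 of the 4 arrays. Stx3 passed under these settings except median scaling. The slide block took its correlation from the smaller spread of the untreated pair, so it cannot tell slide from a wider spread among LPS cultures.

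**Figure D1:**
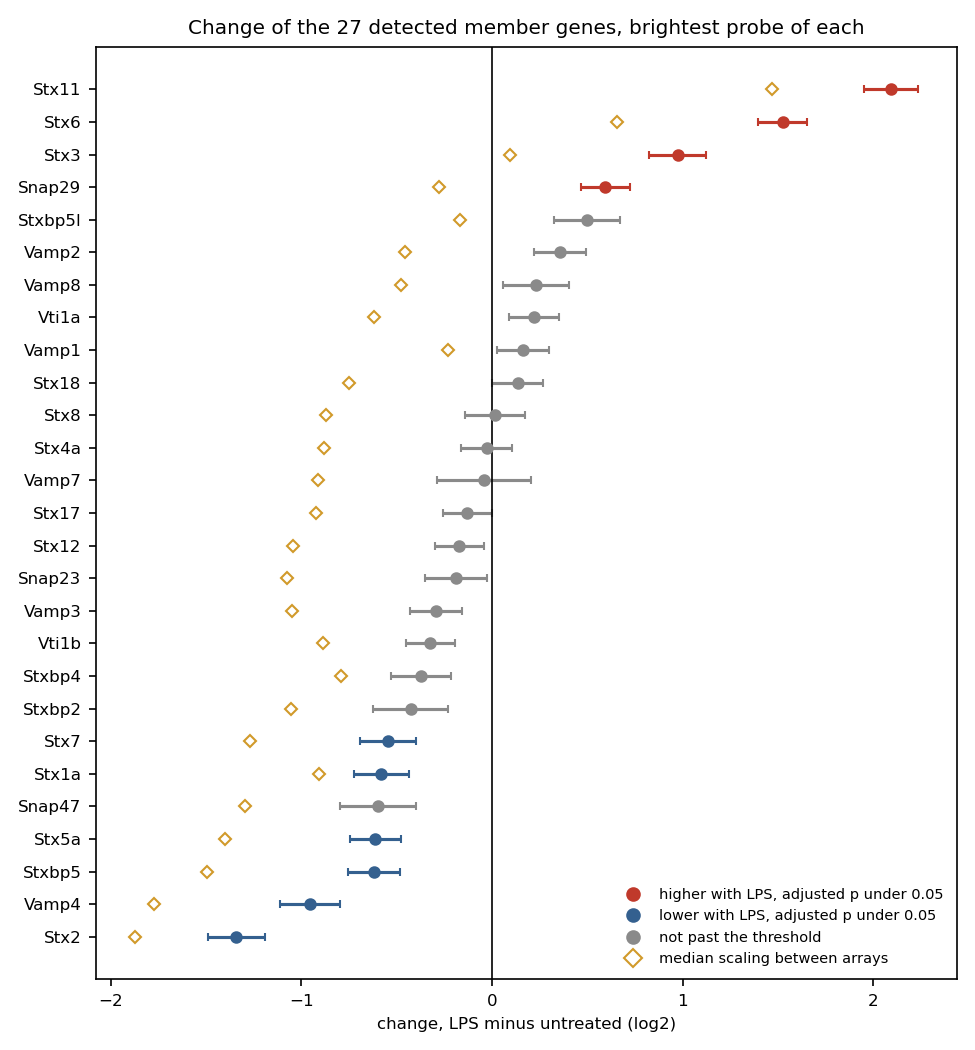
Change on the log2 scale (LPS minus untreated, horizontal axis) of the 27 detected member genes, ordered by size; filled points are the quantile-normalized values with their standard error from limma (2 arrays per condition), and open diamonds the same probes after median scaling. Stx11 (2.09) and Stx6 (1.53) stand above 0 under both normalizations and Stx2 (-1.34) and Vamp4 (-0.96) below 0, whereas Snap29 (0.60) lies at -0.28 and Stx3 (0.97) at 0.09 after median scaling.

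The proximal promoters of the 5 genes with the largest changes are shown so that the sequence next to each start site can be read beside the expression values. Each is a RefSeq window of 250 bases before to 50 bases after the annotated start in GRCm38.p6, written 5′ to 3′ on the gene's strand. Vamp4 and Stx2 each have a pair of windows, of which the upstream one is given. Capitals mark matches to the searched motifs on either strand.
Stx11, chr10:12964210-12964509, minus strand: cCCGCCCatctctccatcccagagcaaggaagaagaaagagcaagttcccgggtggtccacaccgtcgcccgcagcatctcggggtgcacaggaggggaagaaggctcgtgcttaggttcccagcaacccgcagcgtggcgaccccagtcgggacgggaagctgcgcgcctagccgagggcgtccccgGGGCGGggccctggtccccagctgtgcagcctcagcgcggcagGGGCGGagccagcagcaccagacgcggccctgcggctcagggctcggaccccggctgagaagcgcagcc
Stx6, chr1:155158453-155158752, plus strand: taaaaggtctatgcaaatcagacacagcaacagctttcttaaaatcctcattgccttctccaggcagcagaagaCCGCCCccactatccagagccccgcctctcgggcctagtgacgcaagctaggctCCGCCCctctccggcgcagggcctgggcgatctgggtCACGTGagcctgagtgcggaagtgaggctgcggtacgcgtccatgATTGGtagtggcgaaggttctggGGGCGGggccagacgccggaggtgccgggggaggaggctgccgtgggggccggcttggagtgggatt
Stx3, chr19:11819354-11819653, minus strand: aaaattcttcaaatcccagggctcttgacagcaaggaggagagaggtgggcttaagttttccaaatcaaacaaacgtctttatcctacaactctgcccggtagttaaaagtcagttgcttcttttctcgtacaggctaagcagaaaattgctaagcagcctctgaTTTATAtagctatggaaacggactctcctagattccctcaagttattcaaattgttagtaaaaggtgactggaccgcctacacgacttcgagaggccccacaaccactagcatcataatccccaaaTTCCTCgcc
Stx2, chr5:129008523-129008822, minus strand: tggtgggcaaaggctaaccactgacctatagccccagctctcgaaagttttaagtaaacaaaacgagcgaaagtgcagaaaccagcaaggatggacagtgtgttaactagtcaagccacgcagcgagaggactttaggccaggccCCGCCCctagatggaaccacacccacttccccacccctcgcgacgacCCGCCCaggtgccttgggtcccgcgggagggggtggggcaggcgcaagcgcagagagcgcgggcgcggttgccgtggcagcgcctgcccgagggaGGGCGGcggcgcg
Vamp4, chr1:162570265-162570564, plus strand: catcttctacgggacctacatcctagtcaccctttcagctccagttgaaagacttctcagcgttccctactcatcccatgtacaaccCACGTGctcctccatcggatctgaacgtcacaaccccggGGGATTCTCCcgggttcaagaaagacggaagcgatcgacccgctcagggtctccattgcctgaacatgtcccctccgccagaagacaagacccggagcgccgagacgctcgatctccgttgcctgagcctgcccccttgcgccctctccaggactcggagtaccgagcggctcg

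The motifs were searched as exact letters on both strands, without regard to overlap with each other. The GC box (GGGCGG), at which Sp-family factors bind, was in the Stx11 window 3 times, nearest at 19 bases before the start. The Stx6 window also held GC boxes, a CCAAT box on the opposite strand 40 bases before the start, and CACGTG, the E-box read by MiT/TFE and USF factors, at 85 bases before it. The Stx3 window held TATAAA on the opposite strand at 85 bases before the start and GAGGAA, the PU.1 core, 41 bases after it. The Stx2 window held 3 GC boxes. The Vamp4 window held CACGTG at 163 bases before the start and, at 124 bases before it, the sole match among all member windows to the NF-κB site, searched by its consensus of that name. Vamp4 was lower with LPS, and a match describes letters, not binding. RefSeq windows were matched for 29 of the 33 genes (34 windows), and not for Snap25, Vamp2, Vamp3 and Vamp7.

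Over the 34 member windows, 64.7% held the GC box, against 35.7% of all 32851 RefSeq windows of that length. Median GC content was 63.7% in the member windows and 52.7% in all windows. The NF-κB site was in 2.94% of member windows and 4.51% of all, CACGTG in 8.82% and 7.15%, CCAAT in 38.2% and 37.4%, and GAGGAA in 29.4% and 28.3%. TATAAA was in 5.88% of member windows and 13.6% of all. The interferon-response core (GAAANNGAA) was in 11.8% and 8.56%, the cyclic-AMP response element (TGACGTCA) in 2.94% and 1.79%, and the AP-1 site (TGANTCA) in 0% and 7.81%. By gene, a GC box was in 2 of the 4 that were higher, in all 6 that were lower, and in 10 of the 14 with a window that did not pass. A gene counted if any of its windows held the box. Each higher gene has a single window, while the lower genes Stx2, Stx5a, Stx7 and Vamp4 have a pair. For Stx2, Stx5a and Vamp4 the box was in a single window of the pair, so these shares are not on equal terms.

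The cell-surface Qa-SNAREs, which receive vesicles at the plasma membrane, spanned the whole range of the members. Of 5 tested genes, 2 were higher (Stx11, and Stx3 without median scaling), 2 were lower (Stx2 and Stx1a) and Stx4a did not pass. Stx11 is a lipid-anchored syntaxin of immune cells that is needed for granule release by cytotoxic lymphocytes. Its normalized log2 signal was 6.97 and 7.12 in the LPS arrays, and 4.86 and 5.04 in the untreated arrays. The LPS arrays lay above both untreated arrays, and the raw signals did too, at 179 and 173 with LPS and 133 and 131 without. The change was 2.09 ± 0.14 (SE), a 4.27-fold higher level (limma adjusted p = 5.99e-05), and 1.47 with median scaling. Its size depended on the background setting. It was 0.84 without background correction, 1.35 with an offset of 50 and 0.79 in the deposited log2 table, and passed in each. A second Stx11 probe was detected on 1 LPS array and on neither untreated array, and was not tested.

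Stx3, a surface syntaxin of granule and apical exocytosis, read 8.62 and 8.34 in the LPS arrays and 7.48 and 7.54 in the untreated arrays. All LPS values were above the untreated ones after normalization, while raw signals overlapped (372 and 285 with LPS, 364 and 313 without). The change was 0.97 ± 0.15 (SE), or 1.96-fold (limma adjusted p = 0.00277), but with median scaling it was 0.09 (adjusted p = 0.718). A dimmer Stx3 probe moved the same way, by 0.65 (limma adjusted p = 0.0115), with -0.22 under median scaling and an adjusted p of 0.0997 with slide as a random block, and a further 2 probes were not detected.

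Stx2, also called epimorphin, is a surface syntaxin with a role in cytokinesis. It had the largest fall among the tested members after background correction with an offset of 16. Its normalized log2 signal was 5.29 and 5.01 in the LPS arrays, and 6.55 and 6.44 in the untreated arrays. The LPS arrays lay below both untreated arrays, in raw signal as well (119 and 114 with LPS, 235 and 195 without). The change was -1.34 ± 0.15 (SE), a 2.53-fold lower level (limma adjusted p = 0.000653), and -1.87 with median scaling. It was -0.49 without background correction, -0.83 with an offset of 50 and -0.47 in the deposited log2 table. Vamp4 fell further in each of these (-0.85, -0.91 and -0.85).

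Stx1a, the syntaxin of synaptic release, was a dim probe, at 4.66 and 4.91 in the LPS arrays and 5.41 and 5.31 in the untreated arrays. The groups did not overlap, and the change was -0.58 ± 0.15 (SE; limma adjusted p = 0.0211). The call was lost without background correction (-0.16, adjusted p = 0.104), with an offset of 50 in place of 16 (-0.29, adjusted p = 0.0542) and in the deposited log2 table (0.115). It was also lost without untreated replicate A (adjusted p = 0.250) or B (0.146), and with slide as a random block (0.125).

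Stx4a, the surface syntaxin of the TNF route, was at 8.85 and 9.01 in the LPS arrays and 8.99 and 8.93 in the untreated arrays. The arrays of the groups interleaved, with a change of -0.03 ± 0.13 (SE; limma adjusted p = 0.893). Its dimmer probe gave 0.04, and median scaling put both lower, at -0.88 (adjusted p = 0.000853) for the brightest probe and -0.84 for the dimmer.

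**Figure D2:**
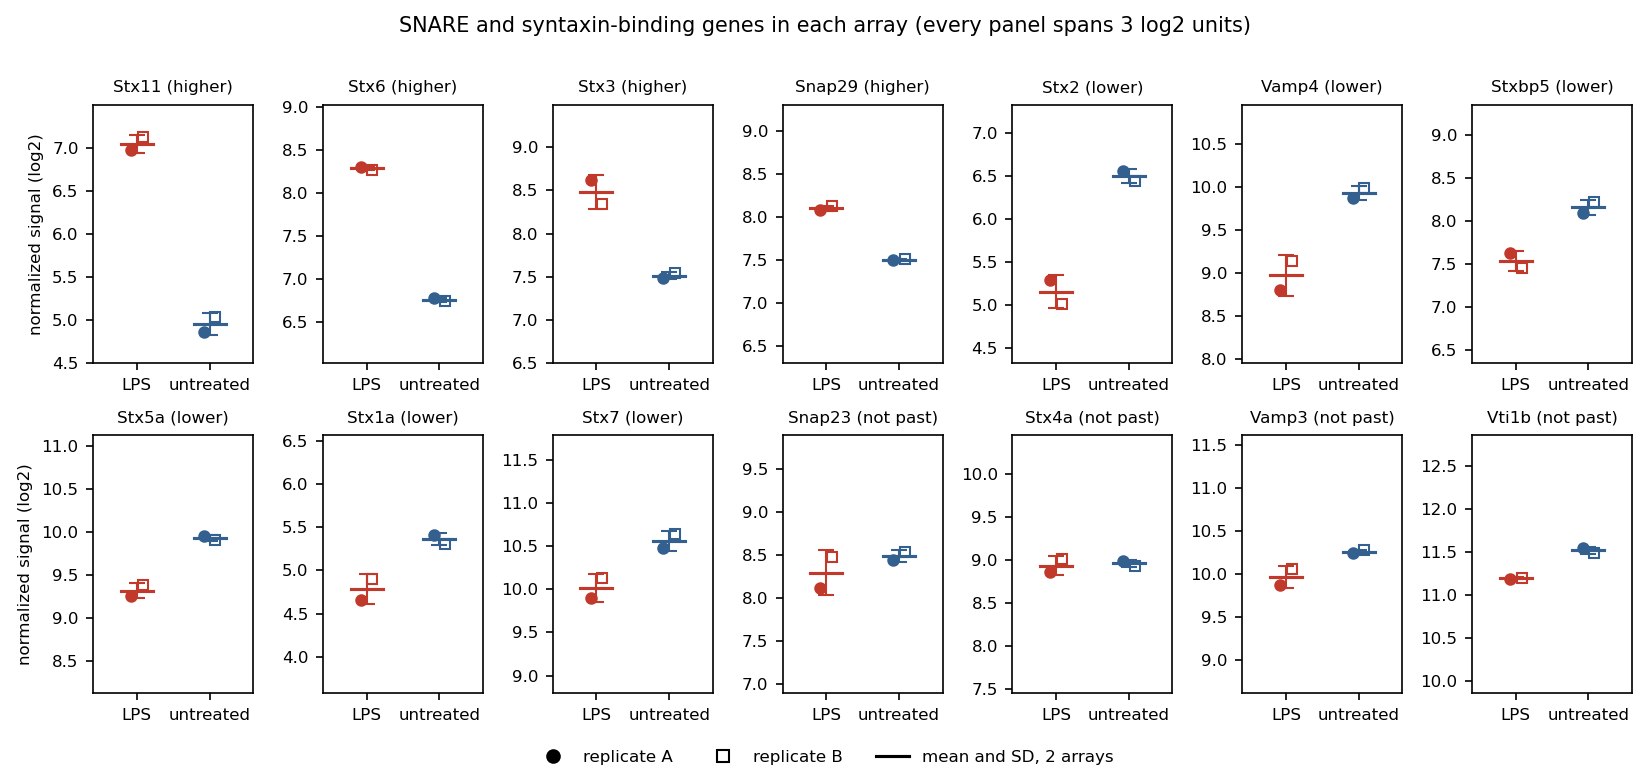
Normalized log2 signal of the 10 member genes that passed and of the 4 tested TNF-route genes that did not, in each LPS array (red, left) and untreated array (blue, right); circles are replicate A, squares replicate B, bars the mean and SD of 2 arrays, and every panel spans 3 log2 units. In the first 10 panels the LPS arrays lie beyond both untreated arrays; the directions shown for Stx3 and Snap29 are lost (0.09) or turned (-0.28) with median scaling.

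Among the Qb and Qc light chains, which complete the Q side of a bundle, Stx6 was higher and the other 3 tested genes did not pass. Stx6 is a Qc-SNARE of the trans-Golgi network and of the carriers that take TNF out of it. Its normalized log2 signal was 8.31 and 8.27 in the LPS arrays, and 6.78 and 6.75 in the untreated arrays. Arrays of a condition nearly coincided and the conditions were far apart. In raw signal the LPS arrays (315 and 276) were also above the untreated ones (261 and 220). The change was 1.53 ± 0.13 (SE), or 2.88-fold (limma adjusted p = 0.000173), and 0.66 with median scaling (adjusted p = 0.00855). A dimmer Stx6 probe was higher by 1.21 (limma adjusted p = 0.00235), and by 0.65 with median scaling.

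Vti1b, the Qb-SNARE that joins Stx6 and Stx7 in a complex, was at 11.19 and 11.20 in the LPS arrays and at 11.55 and 11.49 in the untreated arrays. The LPS arrays were below both untreated arrays, but the change of -0.32 ± 0.13 (SE) did not pass (limma adjusted p = 0.0949). It passed without background correction (-0.32, adjusted p = 0.0155), and a dimmer Vti1b probe gave 0.22, or -0.65 with median scaling (adjusted p = 0.00751). Vti1a, the Qb-SNARE of trans-Golgi and early endosomes, gave 0.22 on its brightest probe and between -0.40 and 0.19 on the other 4 tested probes, with -0.62 for the brightest under median scaling. Stx8, a Qc-SNARE of late endosomes, gave 0.01, but -0.87 with median scaling (adjusted p = 0.000739), and its other 3 tested probes gave values between -0.40 and 0.05. No Vti1a, Vti1b or Stx8 probe passed with the background correction, offset and quantile normalization used for the reported values. With an offset of 50 the brightest Vti1b probe passed (-0.32, limma adjusted p = 0.0323). Without background correction a dimmer Vti1a probe passed as well (-0.24, limma adjusted p = 0.0411).

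Among the 5 tested Qa-SNAREs of endosomes, the Golgi, the endoplasmic reticulum and autophagosomes, Stx7 and Stx5a were lower and the others did not pass. Stx7, the Qa-SNARE of late endosomes and of the Golgi-to-recycling-endosome step of TNF traffic, was at 9.90 and 10.14 in the LPS arrays and at 10.48 and 10.65 in the untreated arrays. Both LPS arrays were lower than either untreated array, and the change was -0.54 ± 0.15 (SE; limma adjusted p = 0.0282). Without untreated replicate A its adjusted p was 0.105, without replicate B 0.251, and with slide as a random block 0.164. It also missed the threshold when no probe was filtered on detection (0.0640).

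Stx5a, the Qa-SNARE of traffic from the endoplasmic reticulum to the Golgi, was at 9.26 and 9.38 in the LPS arrays and at 9.96 and 9.90 in the untreated arrays. The groups did not overlap, and the change was -0.61 ± 0.13 (SE; limma adjusted p = 0.0120). It was lost without untreated replicate A (adjusted p = 0.124) or B (0.111), with slide as a random block (0.0930) and in the mean of its probes (0.0655). Stx12 of recycling endosomes (-0.17), Stx17 of autophagosomes (-0.13) and Stx18 of the endoplasmic reticulum (0.13, and -0.75 with median scaling) did not pass.

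The Qbc proteins link Q helices at the surface and at internal membranes. Snap29, which works with Stx17 and Vamp8 when autophagosomes fuse with lysosomes, was at 8.08 and 8.12 in the LPS arrays and at 7.50 and 7.51 in the untreated arrays. Its normalized values were higher in both LPS arrays, whereas its raw signals (283 and 258 with LPS, 368 and 308 without) were lower. The change was 0.60 ± 0.13 (SE), or 1.51-fold (limma adjusted p = 0.0118), and turned to -0.28 (adjusted p = 0.229) with median scaling. The call was lost without untreated replicate A (adjusted p = 0.121) or B (0.133) and with slide as a random block (0.0963).

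Snap23, the surface partner of Stx4a, was at 8.11 and 8.48 in the LPS arrays and at 8.44 and 8.54 in the untreated arrays. The values overlapped, and the change of -0.19 ± 0.16 (SE) did not pass (limma adjusted p = 0.402). It passed without LPS replicate B (-0.38, adjusted p = 0.0374) and was -1.08 with median scaling. Snap47, an intracellular member of the family, gave -0.60 (limma adjusted p = 0.0557), which crossed the threshold without LPS replicate B (-0.91, adjusted p = 0.000535).

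The R-SNAREs sit on the vesicle. Vamp4, which acts in retrieval to the trans-Golgi network and in early endosomes, was the R-SNARE whose brightest probe passed, and 5 others did not pass. Its normalized log2 signal was 8.81 and 9.14 in the LPS arrays, and 9.87 and 9.99 in the untreated arrays. Both LPS arrays were lower, and raw signals were 414 and 442 with LPS and 1442 and 1260 without. The change was -0.96 ± 0.16 (SE), a 1.94-fold lower level (limma adjusted p = 0.00397), and -1.77 with median scaling. Without untreated replicate B the adjusted p was 0.0498, just inside the threshold. A dimmer Vamp4 probe fell by 1.01 on the log2 scale (limma adjusted p = 0.00232).

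Vamp3, the recycling-endosome R-SNARE of TNF release, was at 9.88 and 10.06 in the LPS arrays and at 10.24 and 10.28 in the untreated arrays. Both LPS arrays were the lower ones, but the change of -0.29 ± 0.14 (SE) did not pass (limma adjusted p = 0.141). It passed without LPS replicate B (-0.38, adjusted p = 0.0335), and was -1.05 with median scaling. Its dimmer probe gave -0.15.

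Vamp8, an R-SNARE of late endosomes and secretory granules, gave 0.23 on its brightest probe (limma adjusted p = 0.338). That value rested on LPS replicate B: without LPS replicate A it was 0.44 (adjusted p = 0.0205), and without LPS replicate B it was 0.02 (0.926). The dimmer Vamp8 probe, at 8.77 and 9.39 in the LPS arrays and 8.40 and 8.45 in the untreated arrays, passed at 0.65 (limma adjusted p = 0.0474). That call was lost with slide as a random block (adjusted p = 0.136), in the log2 table the authors deposited (0.0968) and when no background was corrected (0.0894). With median scaling both turned, to -0.48 for the brightest and -0.19 for the dimmer probe. Vamp2, the synaptobrevin of regulated secretion, gave 0.36 (limma adjusted p = 0.0845), Vamp1 0.16, and the lysosomal Vamp7 -0.04. The signs of Vamp1 and Vamp2 turned with median scaling, to -0.23 and -0.46.

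Of the syntaxin-binding proteins, Stxbp5 changed and 3 others tested did not pass. Stxbp5 is tomosyn, which carries an R-like motif and holds surface syntaxins in complexes that do not fuse. It was at 7.62 and 7.45 in the LPS arrays and at 8.09 and 8.22 in the untreated arrays. The groups did not overlap, and the change was -0.62 ± 0.14 (SE; limma adjusted p = 0.0138). Its adjusted p was 0.0857 without untreated replicate A, 0.168 without untreated replicate B, and 0.101 with slide as a random block. Its relative Stxbp5l gave 0.50 (limma adjusted p = 0.0634), which passed without LPS replicate A (adjusted p = 0.0446) or B (0.0386) and turned to -0.17 with median scaling.

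Stxbp2, the Munc18-type partner of Stx11 and Stx3, was at 10.97 and 10.40 in the LPS arrays and at 11.13 and 11.09 in the untreated arrays. Both LPS arrays were lower, but they lay further from each other than LPS replicate A did from the untreated arrays. The change of -0.43 ± 0.20 (SE) did not pass (limma adjusted p = 0.140). It passed without LPS replicate A (-0.70, adjusted p = 0.00195) and was -0.13 without LPS replicate B. Stxbp4, which binds Stx4a, gave -0.37 on its brightest probe (limma adjusted p = 0.109) and -0.90 on a dimmer one (0.00535) that was detected on 1 of the LPS arrays. Without LPS replicate A the brightest probe gave -0.59 (adjusted p = 0.00473).

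**Figure D3:**
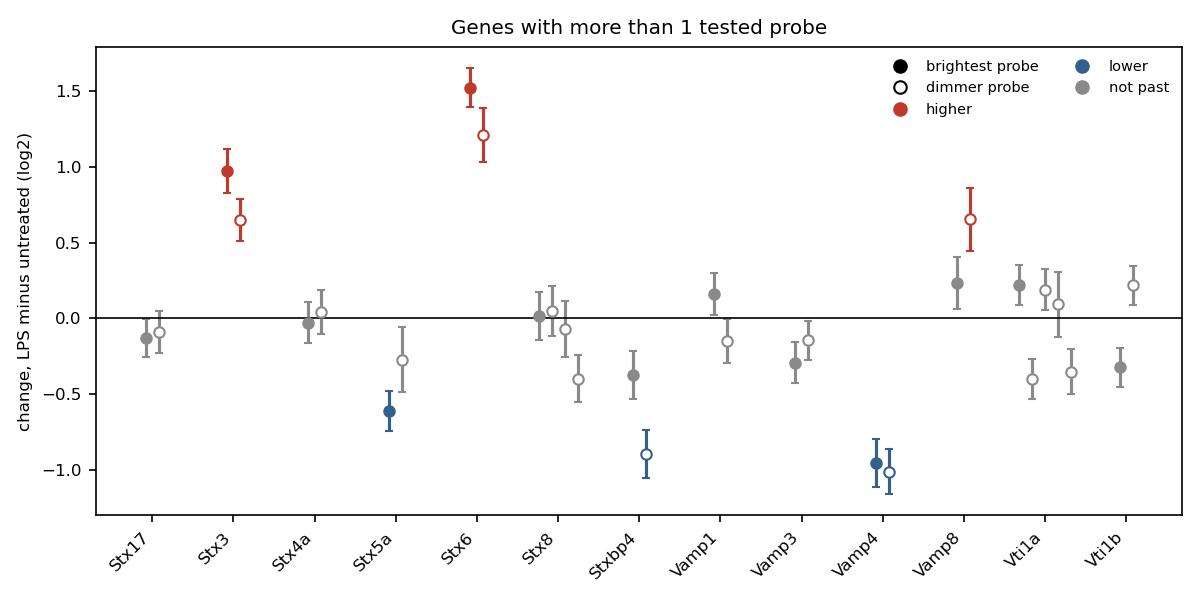
Change on the log2 scale (LPS minus untreated, vertical axis) of every tested probe of the 13 member genes with more than 1 tested probe, with its standard error from limma; filled points are the brightest probe of a gene and open points the dimmer ones, red where the probe was higher, blue where lower and grey where it did not pass. The probes of Stx3, Stx6 and Vamp4 pass together on the same side, and those of Vti1b and Vti1a lie on both sides of 0; with median scaling the Stx3 probes lie at 0.09 and -0.22.

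Probes of the same gene could be compared for 13 members, and for 0 of them did probes pass in opposite directions. Over all tested member probes, 7 were higher, 8 lower and 30 did not pass. On the whole array 5605 of 17211 tested probes passed, in either direction. Each member signal averaged between 10 and 66 beads (median 42), and its bead standard error was at most 4.68% of the signal (median 2.66%), which covers variation on the array and not between cultures. The median difference between the arrays of a condition was 0.20 on the log2 scale for LPS and 0.11 for untreated cells, over all tested probes.

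Read along the TNF route, 1 of its 7 members was higher (Stx6), 1 lower (Stx7) and 4 did not pass (Stx4a, Snap23, Vamp3 and Vti1b). Of all tested genes, 13.6% were higher and 21.1% lower. The Stx7 call was lost with slide as a random block (adjusted p = 0.164). Median scaling put the 4 that did not pass lower (limma adjusted p between 0.000129 and 0.000853). Stxbp3 was not detected, with detection p-values of 0.442 and 0.199 on its brighter probe in the LPS arrays and 0.316 and 0.654 in the untreated arrays. The median change of the 6 tested members was -0.24 on the log2 scale, beside -0.09 for all tested genes. The cargo genes, a list chosen with earlier results of these data known, moved far more. Of 11 tested cytokine and chemokine genes, 10 were higher, beside 13.6% of all tested genes, and Il10 did not pass. Because of that choice, the contrast with the route is a description and not a test. Il1b was at least 465-fold higher (limma adjusted p = 3.89e-07), as its untreated arrays were not above background. The brightest Il1a probe, for the same reason, was at least 171-fold higher (limma adjusted p = 7.45e-07). A dimmer Il1a probe gave a smaller change, of 6.54 on the log2 scale. Cxcl2 was higher by 8.14 on the log2 scale (limma adjusted p = 7.45e-07). Tnf read 13.60 and 13.36 in the LPS arrays and 9.01 and 9.02 in the untreated arrays, a change of 4.46 (limma adjusted p = 2.17e-06).

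Other parts of the secretion machinery were compared through lists of genes. Of 51 tested genes in the 7 lists other than cargo, 3 were higher (5.88%, beside 13.6% of all tested genes) and 12 lower (23.5%, beside 21.1%), and with median scaling 1 and 44. With slide as a random block 1 higher and 4 lower calls were left. Shares of all tested genes were not counted with median scaling or with the slide block. Among 10 genes listed as SNAREs or Sec22 relatives outside the symbol rule, 0 were higher and 3 lower. The lower ones included Sec22c (-0.84), of the Sec22 family, and Ykt6 (-0.47), an R-SNARE of the early secretory path. Use1 (-0.71), a Q-SNARE of retrieval to the endoplasmic reticulum, was also lower. With slide as a random block Sec22c passed (adjusted p = 0.0409) and Ykt6 (0.215) and Use1 (0.0896) did not. Dimmer tested probes gave -0.31, 0.35 and -0.87 for Sec22c, -0.26 for Ykt6, and -0.13 and -0.26 for Use1. Of 6 genes that prime bundles or take them apart, 0 were higher and 3 lower, with Snapin (-0.84), a SNAP-binding protein, and the adaptors Napa (-0.63) and Napg (-0.53) of the NSF ATPase. With the slide block Snapin passed (adjusted p = 0.0323) and Napa (0.126) and Napg (0.196) did not. Nsf itself gave -0.58 (limma adjusted p = 0.0905).

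Of 10 tethering and Sec1/Munc18 genes outside the rule, Scfd1, which binds Stx5a, was higher by 0.52 (limma adjusted p = 0.0440), with -0.22 under median scaling. In the same list Vps39 (-0.60), Vps33a (-0.59) and Vps16 (-0.52), of the complexes that tether late endosomes and lysosomes, were lower. None of these 4 calls remained with the slide block (adjusted p = 0.194 for Scfd1, 0.138 for Vps39, 0.103 for Vps33a and 0.161 for Vps16). Dimmer tested probes gave -0.31 for Vps39, -0.19 for Vps33a, and -0.42, -0.17 and -0.28 for Vps16. The brightest Vps39 probe was detected on 1 of the LPS arrays. The exocyst had 1 lower gene of 8 (Exoc8, -0.86), and the secretory carrier membrane proteins had 1 of 5 (Scamp5, -1.42, with -0.23 on a dimmer probe). The synaptotagmins had 1 of 3 (Syt11, -0.60), which did not pass with the slide block (adjusted p = 0.0951). Syt11 was detected on 1 of the LPS arrays, and its dimmer probe gave -0.17. In the list of Golgi exit and TNF shedding, 2 of 9 were higher, and 1 with median scaling. Rhbdf2, the rhomboid-like protein that carries the TNF sheddase Adam17 to the surface in macrophages, was at 7.98 and 7.66 in the LPS arrays and 5.68 and 5.63 in the untreated arrays. Its change was 2.16 (limma adjusted p = 7.99e-05), and 1.38 with median scaling, whereas Rhbdf1 changed by 0.72, by -0.16 with median scaling, and had an adjusted p of 0.0534 with the slide block. Adam17 gave 0.31 (limma adjusted p = 0.255), and -0.44 with median scaling.

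**Figure D4:**
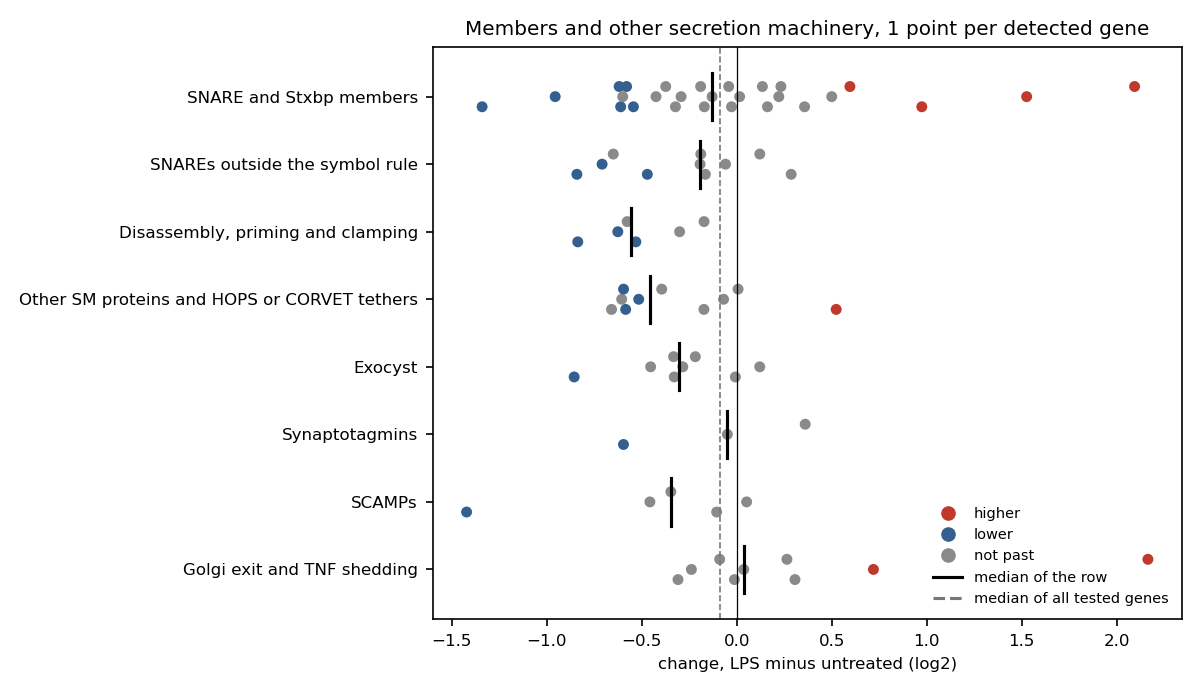
Change on the log2 scale (LPS minus untreated, horizontal axis) of the detected members (top row) and of 7 lists of other secretion genes, with 1 point per gene, coloured by whether it was higher, lower or did not pass; the black bar is the median of a row and the dashed line that of all tested genes (-0.09). The members run between -1.34 and 2.09 with a median of -0.13, and Rhbdf2 (2.16) and Stx11 (2.09) lie furthest right; with median scaling they lie at 1.38 and 1.47, while Scfd1 and Rhbdf1 move below 0.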

How the data were processed

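RNA of RAW G9 cells was hybridized to Illumina MouseWG-6 v2.0 arrays, 1 per sample. The authors exported probe signals with GenomeStudio 2011.1, and the deposited signal and bead standard error are intensities on a linear scale. A detection p-value deposited for every probe gives its rank against negative-control beads. The authors also deposited a log2 table of the whole series, whose order within each array is that of the signals; its normalization is not given in the sources used here, and it served as an alternative. Probes were named from the platform annotation and RefSeq tables (35784 of 45281).

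Signals were processed with neqc in limma 3.58.1 (R 4.3.3): normexp background correction, with the negative-control distribution inferred from detection p-values, an offset of 16, quantile normalization and log2. Probes detected (p below 0.1) in both replicates of either condition were tested (lmFit, eBayes) on 2 against 2 arrays, with Benjamini-Hochberg adjustment over 17211 probes and a threshold of 0.05. The brightest tested probe stood for a gene. Values are printed per array for members that passed with groups that did not overlap and for the TNF route, others by range or single values; from other lists up to 3 rises and 2 falls were named first, and Ykt6, Napg, Vps16, Nsf, Adam17, Tnf, Il10, Snap47, Stxbp2, Stxbp4, Vamp8 and other genes that did not pass were added after their values were seen. A lower bound sets the bright mean against the lowest detected signal of the dim arrays. With 2 arrays per condition, p-values measure the spread between these samples, and their number limits precision. The members and lists were chosen with earlier results of these data known. The fit was tested on simulated data. Alternatives were another background, offset, scaling, filter, probe rule, the log2 table, replicate and slide blocks, and leaving out each array.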

Additional observations from a re-analysis of the deposited data

How the results depend on the processing

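Among the 27 tested members, 4 were higher and 6 lower. Shares of all tested genes were counted for this reported setting alone, and not for the alternatives below. Median scaling gave 2 higher and 20 lower members, and 1 higher and 44 lower genes in the other lists (3 and 12 as reported). It turned the sign of Snap29 (-0.28), Stx18 (-0.75), Stx8 (-0.87), Stxbp5l (-0.17), Vamp1 (-0.23), Vamp2 (-0.46), Vamp8 (-0.48) and Vti1a (-0.62). Slide as a random block, with a correlation of 0.73 estimated by moments and chosen after seeing the data because duplicateCorrelation gave none for 4 arrays, left 3 higher and 2 lower members, and 1 and 4 in the lists. That correlation was set only by the median difference between arrays, 0.11 within untreated cells and 0.20 within LPS. A wider spread of LPS cultures would give the same value, so passing or failing this block does not isolate slide. Leaving out 1 array gave 3 to 6 higher and 2 to 9 lower members, and 1 to 7 higher and 1 to 19 lower in the lists. Of the members, only Stx4a (between -0.11 and 0.052), Stx8 (between -0.13 and 0.16) and Vamp7 (between -0.39 and 0.31) changed sign with an array left out. Leaving out an array leaves a lone sample that is assumed to vary like the other group. The mean of a gene's probes gave 7 lower list genes and turned Stx4a (0.0066), Stx8 (-0.10) and Vti1a (-0.050). No background correction, an offset of 50 and the deposited log2 table each gave 2 higher list genes and 4 higher and 6 lower members. No filter on detection gave 5 lower members, and 9 lower in the lists. Detected members ranged between 23 and 28 over the detection rules. The causes were not tested.

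The labels do not say whether same-lettered arrays were paired. The correlation of the deviations of same-lettered arrays was 0.15 over tested probes, which with 2 pairs cannot decide it. With the replicate block, 5 members were higher and 7 lower, and 3 and 18 list genes; Snap47 (adjusted p = 0.0239) and Stxbp5l (0.0299) passed with it, and no other member's call changed.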
